A study of Mus musculus with 93 samples.

Results

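The genes described here encode the protein subunits of the cytosolic ribosome. They were taken from the count table by symbol (Rpl or Rps, a number and at most one of the letters a, x or l, plus Rplp0, Rplp1, Rplp2 and Rpsa), which gave 82 of its 24514 symbols. Of these, 50 belong to the large subunit and 32 to the small subunit. The rule takes no pseudogene with a "-ps" symbol and misses a few true ribosomal protein genes with other names, such as Rps3a1 and Fau, which are given apart.

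RNA was sequenced from 93 wells of 10 sorted cells each, in 4 groups. Cells came from mouse embryos that carry Hcn4-GFP, Tbx1-Cre and Ai9, or from day 5.5 cardiac spheroids grown from one embryonic stem cell (ESC) line derived from such mice, so every group shares these alleles. GFP+ cells express the reporter of Hcn4, a marker of the first heart field, and RFP+ cells carry the permanent Ai9 label switched on by Tbx1-Cre, which marks cells of the second heart field and their descendants. There were 5 GFP and 4 RFP wells from embryos, taken at E7.75 by the protocol, although their sample titles say embryonic day 8.5, and 38 GFP and 46 RFP wells from spheroids. The labels do not tie wells to single embryos or cultures, so each n is a number of wells and the p-values measure the spread between wells, which may be technical. The spheroid populations filled different plate columns. The embryo populations filled different plate rows, GFP in A to E and RFP in F to H. Within GFP cells and within RFP cells, embryo and spheroid wells filled different columns. None of these comparisons can be told apart from plate position.

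The ribosome is built from ribosomal RNA and one copy of most of these proteins, so cells usually make the proteins of both subunits in matched amounts. Their mRNAs are short, abundant and, in most cases, begin with a run of pyrimidines (the terminal oligopyrimidine, or TOP, tract), through which the mTOR pathway controls their translation. Growing and dividing progenitor cells are known for high ribosome production. RNA-seq reads the mRNA level only, not translation or the number of ribosomes.

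Total counts ran from 712732 to 2525460 in embryo GFP wells, from 1246546 to 1479957 in embryo RFP wells, and from 445071 to 5658882 in spheroid wells other than GFP well C9. Well C9 held 6288 counts; it was kept in the tests and left out of the ranges of single genes below. In 7 plate rows, the spheroid RFP wells of columns 3 and 4 were more alike than any other pair of that group (chi-square per degree of freedom 1.37 to 2.39, against 2.68 to 14.2 in the 1028 other pairs). They still differed by more than sampling noise and were counted as separate wells. This does not show that the pairs held separate cells, so the spheroid RFP wells may include technical duplicates. Embryo GFP wells had reads on 6189 to 8302 genes and embryo RFP wells on 10263 to 13052. The labelled populations were checked against their marker genes. Hcn4 was at 14.1 ± 15.3 CPM (counts per 1000000 counted reads; SD, n = 5) in embryo GFP wells and at 0.338 ± 0.676 (n = 4) in embryo RFP wells. Tbx1 had no read in the embryo GFP wells and 3.79 ± 3.33 CPM in embryo RFP wells. In spheroids Hcn4 was at 7.34 ± 4.43 CPM (n = 38) in GFP and 0.441 ± 0.663 (n = 46) in RFP wells, and Tbx1 at 0.0303 ± 0.132 and 2.49 ± 1.83. The sarcomere gene Myl7 was at 6894 ± 2622 CPM in embryo GFP wells and at 42.3 ± 95.9 in spheroid GFP wells.

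The TOP class refers to the first bases of the mRNA, and the sequence around the annotated start of a few genes is shown. The promoter table of RefSeq (build GRCm38.p6) held 61 of the 82 genes. A run of at least 7 bases, each C or T and the first a C, was searched on the transcribed strand only, from 20 bases before to 40 bases after the annotated start. It was found in 46 of the 61 genes (75.4%), in 29 of 38 of the large subunit and 17 of 23 of the small subunit, and in 28.9% of 26964 other genes. A run anywhere in the searched range counted, so finding or missing one does not assign a gene to the TOP class. The windows below have 30 bases, 5′ to 3′, with the run in capitals. Rps6, Rplp2 and Rpl38 carry the run at or within 4 bases of the annotated start, Rpl7a has one of the longest, and Rps12 had one of the largest changes in the embryo. Rplp0 and Rpl10 are abundant genes in which no such run was found in the window, and Rpl10l and Rpl39l are the restricted paralogs described below.
Rps6 (chr4:86857349-86857378, minus strand): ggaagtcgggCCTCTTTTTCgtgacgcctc
Rplp2 (chr7:141447636-141447665, plus strand): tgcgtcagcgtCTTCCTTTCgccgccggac
Rpl38 (chr11:114668569-114668598, plus strand): gaagcctcgttCTTTCCCCgttctcttcgg
Rpl7a (chr2:26910789-26910818, plus strand): acaattCCCTCTTCTTTCTTTCTCCagcag
Rps12 (chr10:23787182-23787211, minus strand): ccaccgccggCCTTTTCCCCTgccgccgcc
Rplp0 (chr5:115559452-115559481, plus strand): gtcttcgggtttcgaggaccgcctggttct
Rpl10 (chrX:74270801-74270830, plus strand): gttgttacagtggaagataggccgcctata
Rpl10l (chr12:66284387-66284416, minus strand): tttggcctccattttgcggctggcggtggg
Rpl39l (chr16:10170209-10170238, plus strand): ctagctcccaggCCTTTCCggatttccggt

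Ribosomal protein genes took a far smaller share of the reads in embryo GFP wells than in any other group. The summed share was 2.14%, 1.94%, 2.12%, 1.85% and 1.63% in the 5 embryo GFP wells, and 5.10%, 7.06%, 7.14% and 7.25% in the 4 embryo RFP wells. The lowest RFP well (F12) lay above every GFP well. Spheroid GFP wells ran from 6.38% through a median of 7.20% to 8.13%, and spheroid RFP wells from 6.08% through 7.04% to 8.08%. The 2 spheroid populations overlapped almost entirely, and both overlapped the embryo RFP wells. Group means were 1.94% ± 0.211 (SD, n = 5), 6.64% ± 1.03 (n = 4), 7.27% ± 0.421 (n = 38) and 7.15% ± 0.465 (n = 46), so the embryo RFP mean was 3.43 times the embryo GFP mean and the spheroid RFP mean 0.984 times the spheroid GFP mean. These shares are descriptions, with no test. In wells of several cells, fewer cells of a type and less RNA per cell cannot be told apart.

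Both subunits took part. Large subunit genes held 1.12% ± 0.13 of the reads in embryo GFP wells, 3.65% ± 0.543 in embryo RFP, 3.97% ± 0.222 in spheroid GFP and 3.97% ± 0.242 in spheroid RFP wells. Small subunit genes held 0.818% ± 0.104, 2.99% ± 0.49, 3.30% ± 0.217 and 3.18% ± 0.229. The ratio of large to small subunit counts was 1.37 ± 0.139 in embryo GFP wells (1.22 to 1.59) and 1.23 ± 0.0401 in embryo RFP wells (1.17 to 1.25), so the 2 groups overlapped. It was 1.20 ± 0.0395 in spheroid GFP wells and 1.25 ± 0.0304 in spheroid RFP wells, which overlapped too.

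**Figure D1:**
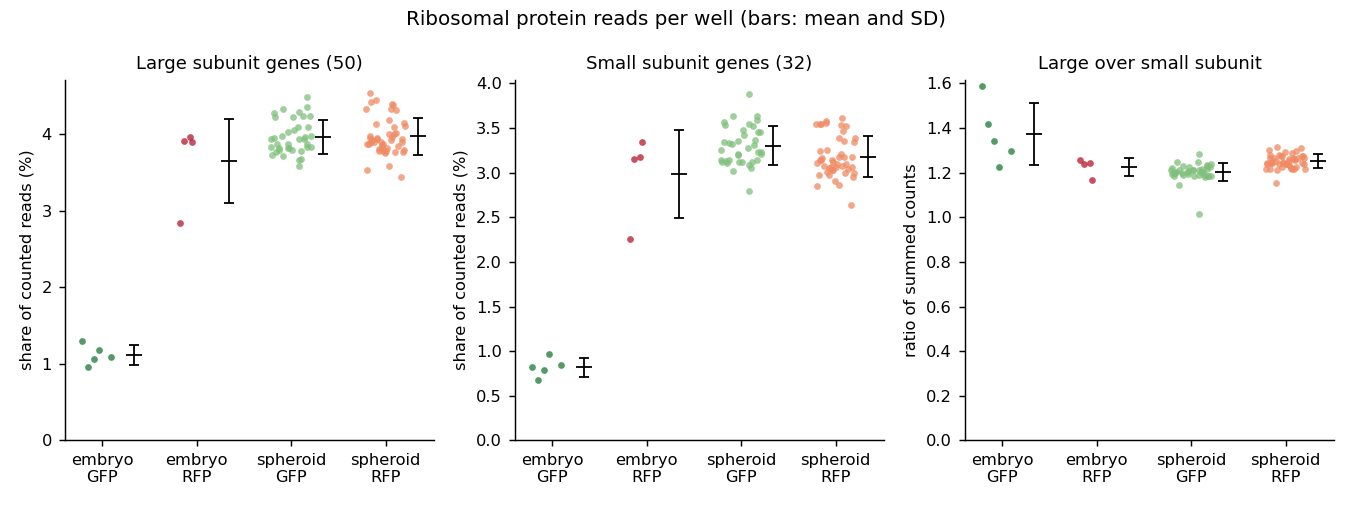
Each point is a well. The left and middle panels plot the share of counted reads (%) on the large and small subunit genes, the right panel the ratio of their summed counts, by group, with the mean and SD in black. The embryo GFP wells lie below every other well in both subunits, at 1.30% or less for the large and 0.964% or less for the small subunit.

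Levels between genes were compared per kilobase of transcript, as the mean of the 4 group means. In the large subunit the highest were Rpl4 (2235 CPM per kb) and Rpl41 (2114), which encodes the smallest ribosomal protein. In the small subunit Rps14 was the highest (2793). The lowest were Rpl26 (0.0307) and Rpl3l (0.155) in the large subunit, and Rps27 (10.5) and Rps15a (114) in the small subunit. For Rps15a the transcript length used was 5130 bases, which lowers its value per kilobase. Rpl26, a protein that every ribosome carries, had no read in any embryo well and reads in 3 spheroid GFP and 3 spheroid RFP wells. Rpl34, Rpl30 and Rps27, also constitutive subunits, had group means under 20 CPM in every group. How the counting treated reads that also match the many processed pseudogenes of this family is not given in the sources used here, so low values of single members are uncertain as levels.

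**Figure D2:**
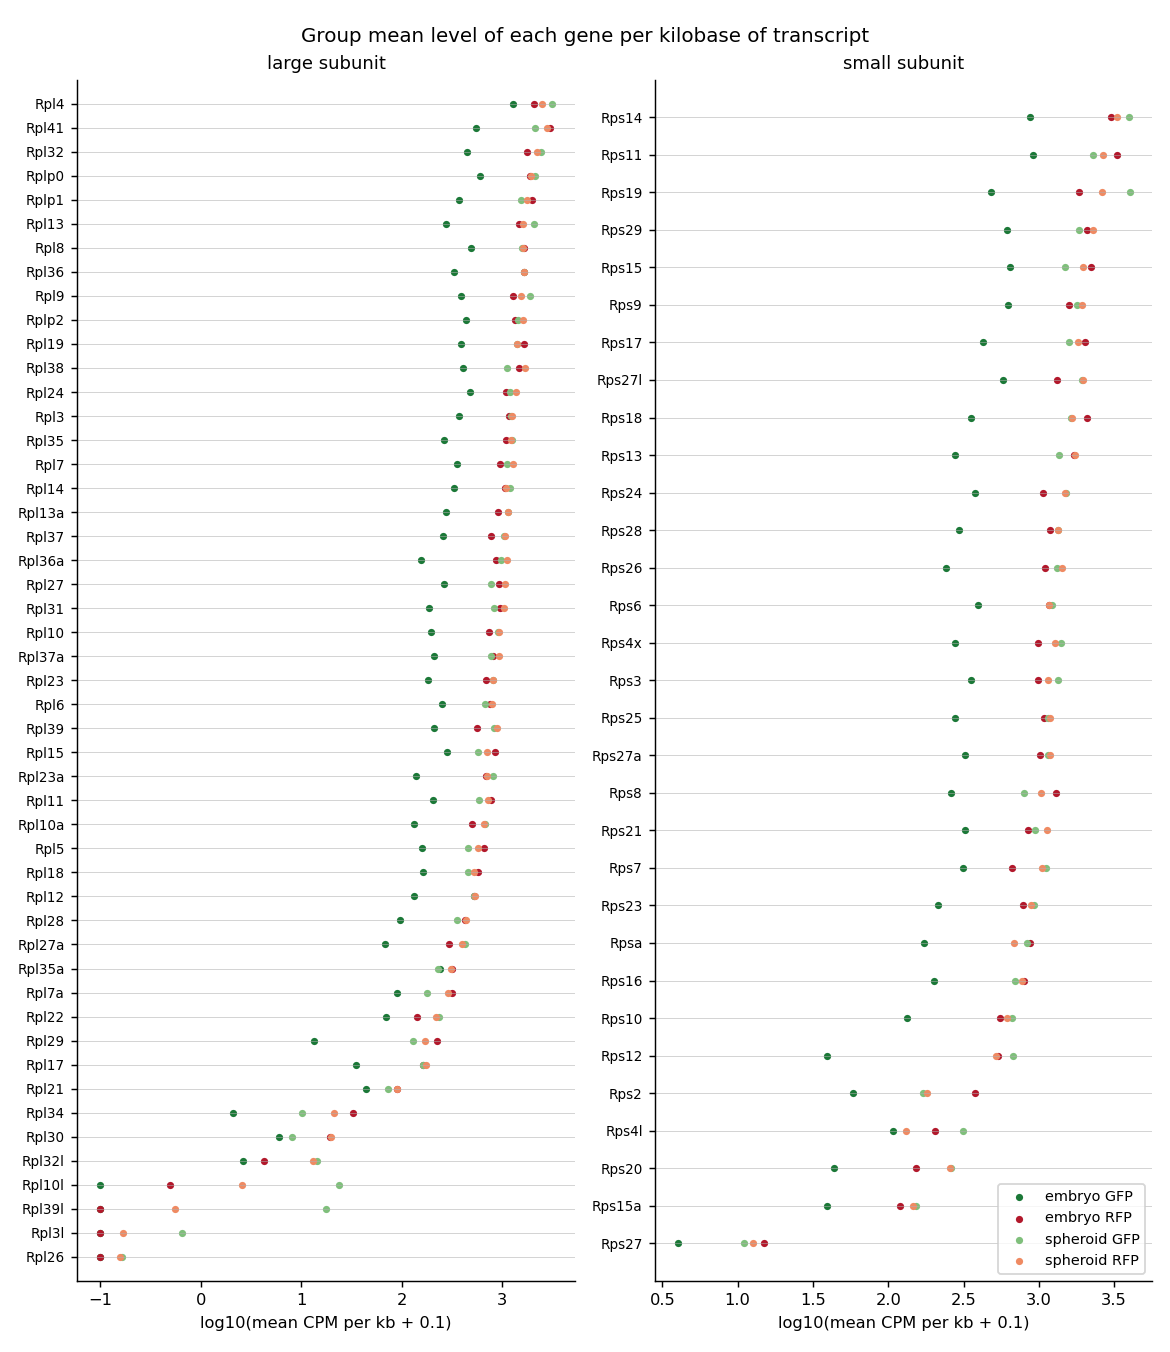
Mean level of the genes in each group, as log10 of CPM per kilobase of transcript plus 0.1 (x axis), with genes ordered by their mean over the groups (y axis) and the subunits in separate panels. The embryo GFP mean is the lowest of the 4 for most genes, and a small set of genes, among them Rpl26, Rpl3l, Rpl39l, Rpl10l and Rps27, lies far to the left.

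The median spread of single members between wells was wider in the embryo groups than in the spheroid groups. Among genes with a mean of at least 100 CPM, the coefficient of variation between wells had a median of 22.3% in embryo GFP wells (62 genes), 18.7% in embryo RFP (73), 8.72% in spheroid GFP without C9 (72) and 10.6% in spheroid RFP wells (73). Rpl4 was the largest single member everywhere. It held 9.94% ± 2.77 of all reads on the family in embryo GFP wells, 4.83% ± 0.654 in embryo RFP, 6.63% ± 0.374 in spheroid GFP and 5.36% ± 0.417 in spheroid RFP wells.

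The comparison of RFP with GFP cells of the embryo asks how the 2 heart fields differ in vivo. Of 76 ribosomal protein genes tested, 70 were higher in RFP wells, 0 were lower and 6 did not pass (edgeR quasi-likelihood test, adjusted p under 0.1). Over all 8503 genes tested, 6.21% were called higher in RFP wells and 3.88% higher in GFP wells. The median log2 fold change was 1.85 for the family (1.91 for 45 large and 1.84 for 31 small subunit genes) and 0.09 for all genes tested, and all 76 values were positive. For 71 of the 82 genes, every RFP well lay above every GFP well. Such separation was counted for the family only, so no share over all genes stands beside this count. The 4 largest called changes were those of Rpl34, Rps12, Rps2 and Rps13.

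Rps12, a small subunit protein, was at 16.3, 36.03, 15.4, 36.2 and 1.09 CPM in the GFP wells and at 169, 268, 396 and 318 CPM in the RFP wells. The groups did not overlap, and the log2 fold change was 3.72 ± 0.76 (SE; edgeR adjusted p = 0.00976). Rps2, which lies near the mRNA entry channel, was at 87.8, 76.8, 46.3, 41.0 and 52.5 CPM against 298, 421, 405 and 460 CPM. Its RFP wells were all higher, with a log2 fold change of 2.68 ± 0.39 (edgeR adjusted p = 0.00121). Rps13 was at 246, 196, 160, 131 and 82.0 CPM against 760, 1034, 1086 and 1156 CPM (2.62 ± 0.32, edgeR adjusted p = 0.000289). Rpl34 had the largest called change, 3.91 ± 1.17 (edgeR adjusted p = 0.0633), at 0 to 3.28 CPM in GFP and 10.9 to 24.1 CPM in RFP wells. It rests on 7 reads in all GFP wells together, and the call was lost without RFP well F12, G11 or H11.

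The proteins of the ribosomal stalk, which recruits translation factors, moved in the same direction. Rplp0, its base, was at 545, 866, 950, 896 and 822 CPM in GFP wells and 2347, 2831, 2973 and 2076 CPM in RFP wells (1.64 ± 0.19, edgeR adjusted p = 0.000226). Rplp1 and Rplp2, which bind it as dimers, changed by 2.42 ± 0.27 (edgeR adjusted p = 0.000148) and 1.64 ± 0.27 (0.00233). Rpl5 and Rpl11 form a particle with 5S ribosomal RNA that can bind Mdm2, the inhibitor of p53, when ribosome assembly fails. Rpl5 was at 281, 366, 306, 376 and 312 CPM against 1089, 1360, 1524 and 1410 CPM, a log2 fold change of 2.02 ± 0.21 (edgeR adjusted p = 8.76e-05). Rpl11 changed by 1.91 ± 0.27 (0.000833). In the small subunit, Rps6, the classical substrate of S6 kinase, changed by 1.55 ± 0.28 (0.00464), and Rps19, mutated in Diamond-Blackfan anaemia, by 1.92 ± 0.25 (0.000438). Rps27a, made as a fusion with ubiquitin, changed by 1.65 ± 0.27 (0.00233) and Rpsa, also known as the laminin receptor, by 2.35 ± 0.32 (0.000624). For each of these genes every RFP well was above every GFP well.

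The 6 genes that did not pass were Rpl22, Rpl21, Rps4l, Rpl29, Rpl30 and Rpl35a. The values of Rpl35a and Rpl29 mark the ends of the range and were chosen after they were seen. Rpl35a was at 149, 101, 112, 82.0 and 165 CPM in GFP wells and 120, 186, 165 and 178 CPM in RFP wells, so the groups overlapped (0.41 ± 0.45, edgeR adjusted p = 0.821). Rpl29 had the largest estimate, 3.97 ± 1.38 (edgeR adjusted p = 0.119), with no read in 2 GFP wells. Rpl4 had the smallest called change (0.70 ± 0.20, edgeR adjusted p = 0.0539). Its GFP wells were at 2051, 1610, 3137, 1503 and 1454 CPM and its RFP wells at 2856, 3394, 3502 and 2902 CPM, and its call was lost without GFP well D12 or E12 or RFP well G11, G12 or H11. With the summed count of the family as the library size, so that each gene is read relative to the others, 4 genes passed. Rpl35a and Rpl4 were lower in RFP wells by this scale (-1.39 and -1.04), and Rpl41 and Rps13 higher (0.65 and 0.88).

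Several other measures moved with this result. Embryo GFP wells held reads on fewer genes, as given above, and their summed level of 5 mainly nuclear RNAs (Malat1, Neat1, Kcnq1ot1, Meg3 and Snhg11) was 3159 to 6495 CPM, against 1129 to 1883 CPM in RFP wells. Of 4 of these RNAs tested in the embryo, 1 was called lower in RFP wells and 0 higher. In spheroids their sum was 13049 to 26570 CPM in GFP and 2997 to 6867 CPM in RFP wells. There 4 of 5 were called lower in RFP wells and 1 higher. Of 13 first heart field and sarcomere markers, 9 were called lower in RFP wells, with sums of 19230 to 43109 CPM in GFP and 842 to 1828 CPM in RFP wells. Markers of other cell types were higher in sum in embryo RFP wells. The sum of 9 endothelial genes was 3.06 to 101 CPM in GFP and 221 to 560 CPM in RFP wells, with 2 of 4 tested called higher, and that of 7 neural genes was 0 to 9.26 and 31.1 to 106 CPM, with 0 of 1. The sum of 10 endoderm genes was 0 to 28.1 and 12.8 to 676 CPM, with none tested. The part of these in the result was not tested. Change also followed transcript length. Of the genes outside the family, 541 with transcripts under 1000 bases had a median log2 fold change of 1.04, and those of 2000 bases or more -0.14. With each well's trend with length taken out, fitted without the family, 42 of 76 ribosomal protein genes were still called higher in RFP wells and 0 lower, with a median of 0.96. In that fit 406 of all 8503 genes were called higher in RFP wells and 275 lower.

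**Figure D3:**
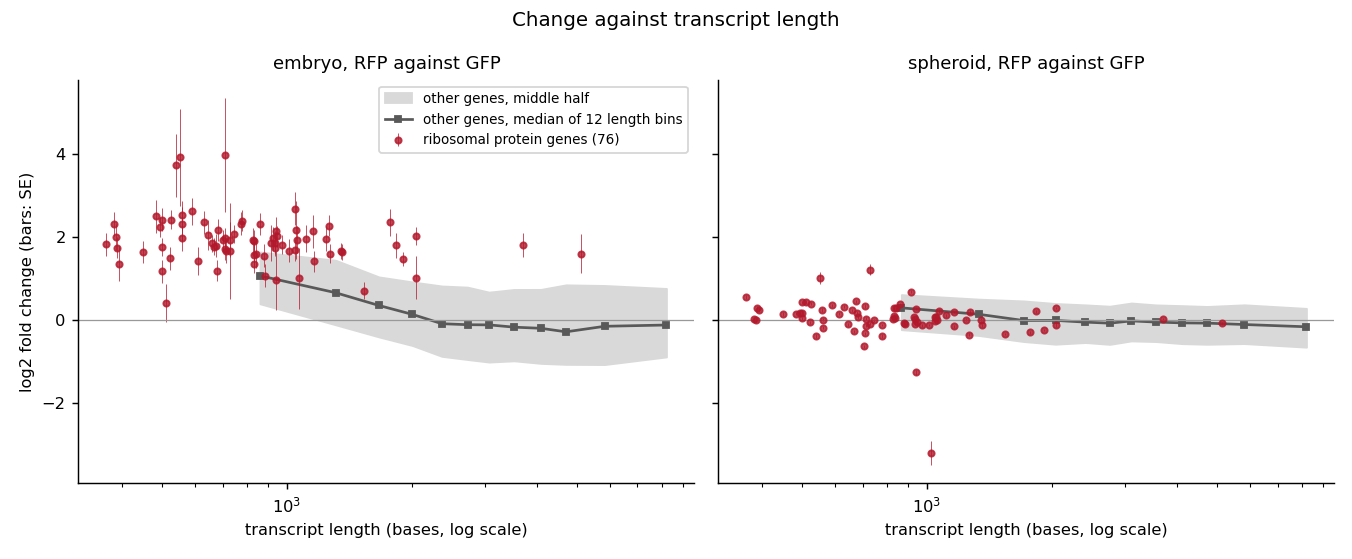
Log2 fold change of RFP against GFP (y axis) by transcript length in bases (log scale) in the embryo (left) and in spheroids (right). Red points are ribosomal protein genes with their SE (76 left, 77 right), and the grey line and band give the median and quartiles of other genes in 12 length bins. In the embryo the shortest bin of other genes has a median of 1.06 and most ribosomal protein genes lie above it, and in spheroids they scatter about 0.

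Lists of genes close to the family in function were read in the same test. Of 9 further ribosomal protein genes or paralogs outside the symbol rule, 6 were tested in the embryo and 4 were higher in RFP wells, among them Fau (1.82 ± 0.26, edgeR adjusted p = 0.00088) and Rps3a1 (1.60 ± 0.24, 0.00133). Of 15 tested elongation factors and other known TOP mRNAs, 10 were higher and 0 lower, with a median of 0.97. Eef1b2 changed by 1.79 ± 0.32 (edgeR adjusted p = 0.00422) and Eef1a1 by 0.99 ± 0.14 (0.000842), while Eef2 was at -0.42 ± 0.27 (0.568). Of 30 initiation factors 4 were higher (median 0.48), of 64 ribosome assembly genes 4 (0.56), of 78 mitochondrial ribosomal protein genes 7 (1.06), and of 14 mTOR and Myc pathway genes 0 (0.26), with 0 lower in each list. The count of 4 in 64 is near the 6.21% of all genes called higher. Among ribosomal protein genes tested in the embryo, the median change was 1.85 in the 41 with a pyrimidine run near the start and 1.93 in the 14 without. This split is by a run in the searched range and not by TOP status.

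The same comparison in spheroids asks how the ESC-derived populations differ. Here the family went in both directions, as genes in general did. Of 77 genes tested, 34 were higher in RFP wells, 25 higher in GFP wells and 18 did not pass, with a median log2 fold change of 0.03. Over all 9940 genes tested, 37.8% were called higher in RFP wells and 40.1% in GFP wells, with a median of -0.02. The calls in the family were near these shares and set it little apart from other genes. Most changes were small: 53 of the 59 called genes differed by less than 1.5 times, and 4 by at least 2 times. The large subunit had 24 genes higher in RFP and 12 higher in GFP wells, the small subunit 10 and 13. For 0 of 82 genes were the wells of the populations fully separated, with or without C9, a count not made over all genes. With the length trend taken out, 8 were higher in RFP wells and 55 in GFP wells, with a median of -0.24. In that fit 3872 of all 9940 genes were called higher in RFP wells and 3842 in GFP wells. The direction of small changes in spheroids therefore depends on this correction.

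The largest changes toward RFP were in Rpl30, Rpl34, Rpl7a and Rpl38. Rpl7a ran from 116 through a median of 166 to 200 CPM in GFP wells and from 168 through 268 to 320 CPM in RFP wells (0.68 ± 0.04, edgeR adjusted p = 1.88e-29). Rpl38, a protein known for its role in translating Hox mRNAs, ran from 315 through 415 to 564 CPM and from 421 through 591 to 928 CPM (0.55 ± 0.05, 7.47e-18). In both genes the ranges of the populations overlapped, and the RFP median lay above the highest GFP well. Rpl30 (1.21 ± 0.13, edgeR adjusted p = 1.38e-14) and Rpl34 (1.00 ± 0.14, 1.4e-09) had medians of 6.06 and 5.99 CPM in GFP wells and 13.8 and 11.5 CPM in RFP wells, and rest on few reads.

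Rpl10l, Rps4l, Rps19 and Rpl13 had the largest changes toward GFP. Rps19, a small subunit protein needed to mature 18S ribosomal RNA, ran from 2275 through 2841 to 3323 CPM in GFP wells and from 1475 through 1789 to 2340 CPM in RFP wells (-0.63 ± 0.04, edgeR adjusted p = 4.18e-29). In the embryo it was 261 to 454 CPM in GFP and 964 to 1430 CPM in RFP wells, the opposite direction. Rpl13 ran from 1067 through 1661 to 1891 CPM and from 920 through 1262 to 1578 CPM (-0.38 ± 0.04, 3.88e-15). Other genes called higher in GFP wells included Rps12, Rpl4, Rpl9, Rpsa, Rps14, Rps3, Rpl23a, Rpl27a, Rpl32, Rps4x, Rplp0, Rpl22, Rpl14, Rps10, Rps7, Rps23, Rpl10a, Rps15a and Rps6, with log2 fold changes from -0.38 to -0.08. With the length trend taken out Rps15a had the opposite sign (0.058).

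The test of the difference between both sources asked whether the RFP against GFP change was the same in embryos and spheroids. It was larger in the embryo for 61 of 76 genes and smaller for 0, at an adjusted p under 0.1 (difference of the edgeR log2 fold changes over their standard errors, 7 degrees of freedom). Over all 8182 genes tested, 3.15% passed in that direction. As an interaction term in 1 edgeR fit over the 4 groups, 76 of 80 members passed in that direction, and so did 37.3% of 12655 genes, so the background depends on how the difference was tested. The median difference was 1.87. Of the 70 genes called higher in embryo RFP wells, 30 were also called higher in spheroid RFP wells, 22 were called higher in spheroid GFP wells and 18 did not pass there. Of all genes tested in spheroids, 37.8% were called higher in RFP and 40.1% in GFP wells. These crossings lie near those shares and are no result about the family. Rps12 had a difference of 4.10 ± 0.76 (edgeR-based adjusted p = 0.0411), Rpl13 of 2.77 ± 0.25 (0.0109), Rpsa of 2.64 ± 0.32 (0.0135) and Rps19 of 2.54 ± 0.25 (0.0109). With the length trend taken out, 40 of 76 passed, as did 217 of all 8182 genes in that direction.

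**Figure D4:**
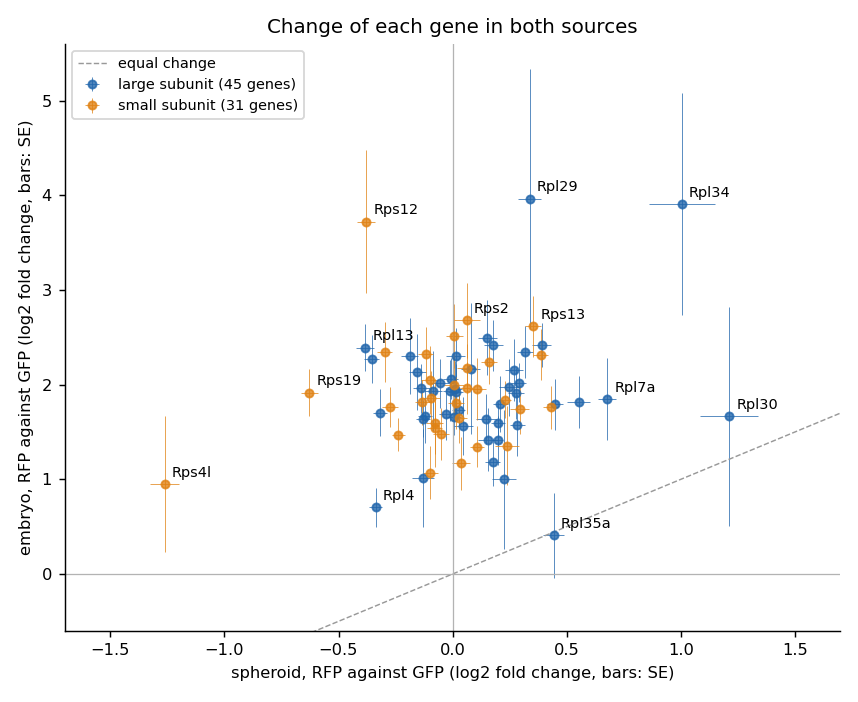
Log2 fold change of RFP against GFP in spheroids (x axis) and in the embryo (y axis) for the 76 genes tested in both, with SE bars and the subunits in 2 colours. The dashed line marks equal change. All but Rpl35a lie above it, with embryo changes from 0.41 to 3.97 and spheroid changes of these genes from -1.26 to 1.21.

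The comparisons of spheroid with embryo cells ask how ESC-derived cells differ from their counterparts. They share wells with the comparisons above and are no independent evidence of them. In GFP cells, 77 of 79 genes tested were higher in spheroids and 0 lower, where 48.3% of 11822 genes were called higher in spheroids and 19.7% higher in embryos. The family median was 2.06 and that of all genes 0.67. Without C9 the wells of 73 genes of the family did not overlap, and this was not counted over all genes. Rps19 had one of the larger changes (3.16 ± 0.14, edgeR adjusted p = 1.82e-25), from a mean of 340 ± 83.8 CPM (n = 5) in embryo wells to the spheroid values above. Rpl30 (0.56 ± 0.44, edgeR adjusted p = 0.27) and Rpl35a did not pass. In RFP cells, 26 of 79 genes were higher in spheroids, 16 were higher in embryos and 37 did not pass, against 22.5% and 20.1% of 11147 genes, with a family median of 0.08. Again without a count over all genes, the wells of Rpl7, Rps20, Rpl22, Rps19 and Rps7 were all higher in spheroids. Those of Rps2 were all lower, from 298 to 460 CPM in embryo wells and from 92.9 to 248 CPM in spheroid wells (-1.13 ± 0.13, edgeR adjusted p = 1.73e-10). The counts depended on embryo RFP well F12, without which 14 genes were higher in spheroids and 22 in embryos. Without G12 or H11, 9 genes were higher in embryos. F12 also held 1156 CPM of 8 blood genes, against 0 to 1.37 CPM in the other embryo RFP wells; the part of this was not tested.

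Some members are known as paralogs with restricted expression, and 2 of them, Rpl10l and Rps4l, had the largest changes toward GFP in spheroids. Rps4l was not restricted here, with reads in every well of the 4 groups. Rpl10l, an intronless copy of Rpl10 known from the testis, had no read in the 5 embryo GFP wells and 1 embryo RFP well with reads. In spheroids it ran from 6.37 through 23.9 to 61.8 CPM in GFP wells and from 0 through 1.47 to 16.9 CPM in RFP wells, where 29 of 46 had reads (-3.20 ± 0.28, edgeR adjusted p = 1.49e-18). GFP wells were mostly above RFP wells, with some overlap. Its mean in spheroid GFP wells, 24.3 CPM, was at least 9.29-fold higher than the level that 3 counts in each embryo GFP well allow. The parent gene Rpl10 did not pass in spheroids (0.01 ± 0.03, edgeR adjusted p = 0.724), at medians of 744 and 756 CPM.

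Rpl39l, a copy of Rpl39 best known from male germ cells, was also read mainly in spheroid GFP wells, at lower counts. It had no read in any embryo well, ran from 2.62 through 10.9 to 28.5 CPM in spheroid GFP wells and had reads in 9 of 46 spheroid RFP wells, at most 3.83 CPM. It was not tested between the spheroid populations because it fell below the filter, and against the embryo GFP wells its mean of 11.9 CPM was at least 4.56-fold higher than the level of 3 counts per well. Rpl39 itself was at medians of 478 and 522 CPM (0.15 ± 0.04, edgeR adjusted p = 0.00129, with the sign turned by the length correction). Rps4l, an intronless copy that GENCODE M21 lists as a transcribed processed pseudogene, ran from 192 through 281 to 484 CPM in spheroid GFP and from 82.7 through 127 to 202 CPM in spheroid RFP wells (-1.26 ± 0.06, 1.26e-33). It may share reads with Rps4x, which changed by -0.13 ± 0.03 (0.000132). In the embryo Rps4l was at 3.97 to 164 CPM in GFP and 167 to 222 CPM in RFP wells and did not pass although the groups did not overlap (0.95 ± 0.72, edgeR adjusted p = 0.671).

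Most markers of pluripotent cells moved with Rpl10l and Rpl39l in spheroids. Of 9 such markers, 7 were tested in spheroids, and 6 were lower in RFP wells and 0 higher, with sums of 109 to 1667 CPM in GFP and 8.50 to 557 CPM in RFP wells. In the embryo the sums were 0 to 503 CPM in GFP and 0 to 78.8 CPM in RFP wells. Of the 9, Pou5f1, Zfp42, Dppa4 and Utf1 had no read in any embryo well and the other 5 had some. The highest embryo level was in Tdgf1, at up to 503 CPM in embryo GFP wells. In spheroids Tdgf1 was not higher in GFP wells, with a mean of 16.3 CPM (up to 88.3) against 18.7 CPM (up to 154) in RFP wells. The part of these markers in the result was not tested.

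In the other pairs the copy and its parent lay far apart in level. Rpl3l, a copy of Rpl3 known from heart and skeletal muscle of grown animals, had no read in embryo wells, and reads in 11 of 38 spheroid GFP and 5 of 46 spheroid RFP wells. It was at most 6.50 CPM, and it was not tested. Rpl3 was at a median of 1691 CPM in spheroid GFP and 1677 CPM in spheroid RFP wells. Rps27l, a p53-induced copy of Rps27, had more counted reads than Rps27 in every group. Medians were 934 and 980 CPM in spheroid GFP and RFP wells against 3.62 and 4.33 CPM for Rps27. The low values of Rps27 are uncertain as levels, as said above, and so is the size of this gap. Rps27l was higher in embryo RFP wells (1.17 ± 0.28, edgeR adjusted p = 0.0195), at 190 to 380 CPM in GFP and 465 to 797 CPM in RFP wells, and did not pass in spheroids (0.04 ± 0.04, 0.409). With the length trend taken out its embryo value was -0.14.

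**Figure D5:**
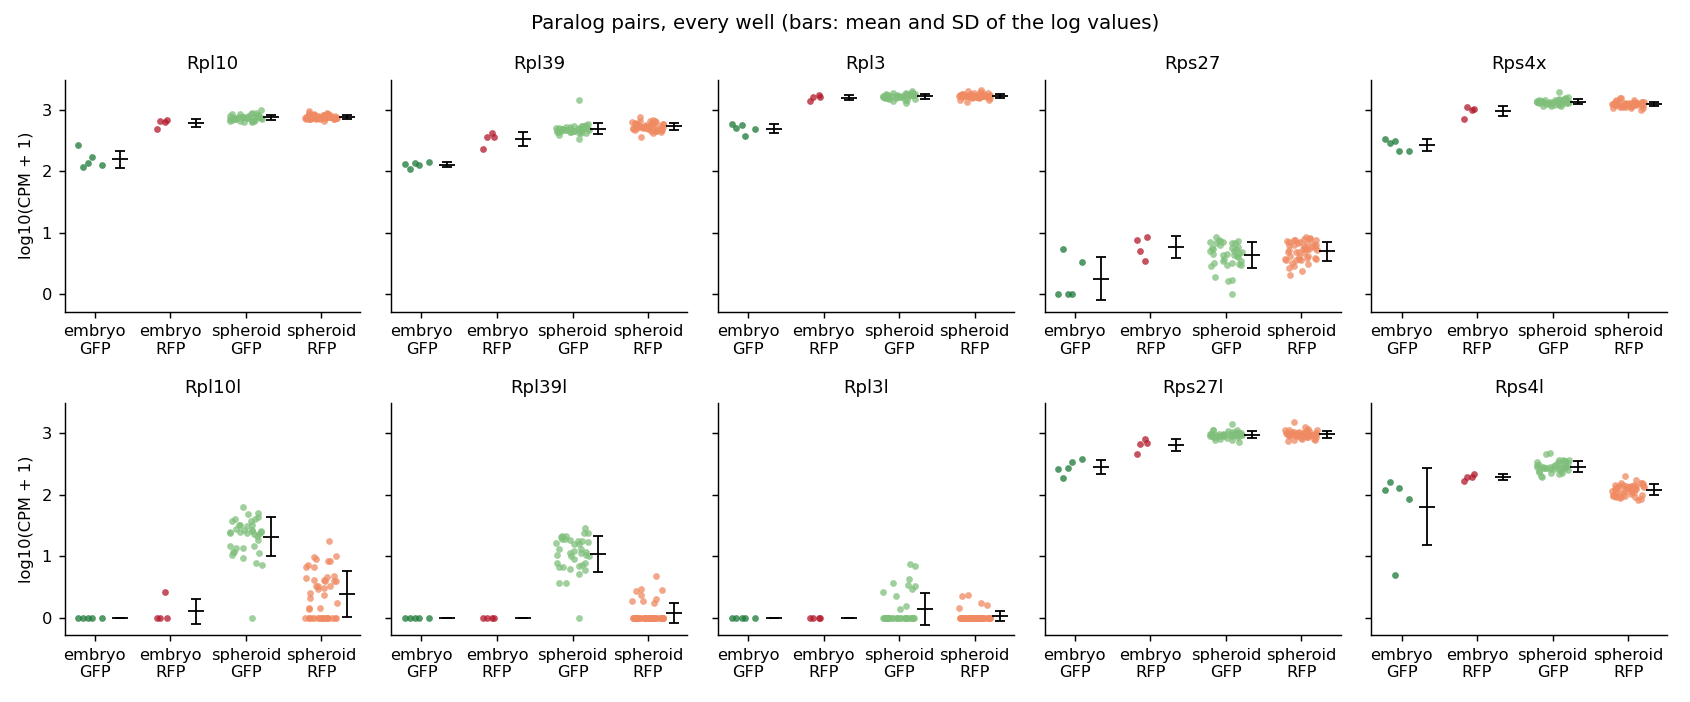
Each point is a well, with log10(CPM + 1) on the y axis and the 4 groups on the x axis, and the mean and SD of the log values in black, with well C9 included. The upper row holds the widely expressed gene and the lower row its copy. Rpl10l and Rpl39l have reads mainly in spheroid GFP wells. Rps27l lies far above Rps27 in all groups, but the low values of Rps27 are uncertain as levels.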

How the data were processed

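Trimmomatic 0.36 was used by the authors to remove bases below a quality of 35 and reads below 36 bases. Alignment was to mm10 by HISAT2 2.0.4, and counting per gene was by featureCounts of Subread 1.5.2. The deposited values are whole counts per gene symbol without normalization. The versions are from the submitters' processing notes, and the annotation, the use of strand and the treatment of reads with several matches are not given in the sources used here. The libraries were made by PCR without molecular identifiers, so limits from counts cover counting error only.

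CPM used total counts. Groups came from the sample titles. Counts were tested in R 4.3.3 with edgeR 4.0.16 (TMM, filterByExpr, quasi-likelihood F test) over all genes, separately for each comparison, with Benjamini-Hochberg adjustment and a threshold of 0.1 as in the study. Standard errors are the absolute log2 fold change over the root of F. Transcript length was the median over APPRIS-tagged transcripts of GENCODE M21 or, for genes without one, the length covered by all exons. A length of either kind was found for 96.8% of symbols and all 82 members. The length trend was a lowess curve per well over genes counted in every well, centred on the mean over those genes. The fits were tested on simulated data. Alternatives were other library sizes and filters, limma 3.58.1, DESeq2 1.42.0 and left-out wells. Leaving out C9 from shares and overlaps was added after seeing the data.

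The members and gene lists were chosen with earlier results of these data known. The genes named are the 4 called members with the largest change in each direction in both RFP against GFP comparisons, called members opposite to most, restricted paralogs with their parents, the stalk proteins, Rpsa, Rpl5, Rpl11, Rps19, Rps6 and Rps27a, and the 2 highest and 2 lowest per subunit by CPM per kilobase. A few genes are not reported here by name.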

Additional observations from a re-analysis of the deposited data

Results flagged for a closer look

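For 20 of the 27 named members tested, the RFP against GFP change differed between embryos and spheroids (adjusted p under 0.1 over all genes tested, edgeR estimates), where 3.15% of 8182 genes passed in that direction. Many were named for a large change in the embryo or an opposite one in spheroids, which fixes part of the count and of its direction. The difference of the log2 fold changes, embryo minus spheroid, was positive in all 20. In the large subunit it was 2.77 for Rpl13, 2.03 for Rpl41, 1.91 for Rpl10, 1.73 for Rpl5, 1.65 for Rpl3, 1.63 for Rpl11, 1.27 for Rpl38 and 1.04 for Rpl4. In the stalk it was 2.24 for Rplp1, 1.77 for Rplp0 and 1.49 for Rplp2. In the small subunit it was 4.10 for Rps12, 2.64 for Rpsa, 2.62 for Rps2, 2.54 for Rps19, 2.26 for Rps13, 2.04 for Rps14, 1.95 for Rps4x, 1.63 for Rps6 and 1.62 for Rps27a.

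In 5 of 63 sets of wells examined, 1 well lay far from the rest of its group, where chance gives about 1 in 20. Embryo RFP well F12 was low in the summed share of the family (5.10%), in the large subunit share (2.84%), in Rps19 (964 CPM) and in Rpl41 (1085 CPM). It also held 1156 CPM of blood genes, against 0 to 1.37 CPM in the other embryo RFP wells. Embryo GFP well E12 was low in Rps27a (139 CPM).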

How the results depend on the processing

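In the embryo, 64 to 71 members were called higher in RFP wells, and 0 to 0 lower, when single wells were left out. The count fell to 42 with the length trend as an offset, and to 2, with 2 lower, with the summed count of the family as library size. Over all 8503 genes these fits called 406 and 241 higher and 275 and 1929 lower. In spheroids the length offset gave 8 higher in RFP and 55 higher in GFP wells, where 3872 and 3842 of 9940 genes were called. In GFP cells, family scaling gave 30 members higher in spheroids and 26 in embryos, and DESeq2 size factors, DESeq2 and the length offset each gave 1 in embryos. Leaving out embryo wells gave 77 to 79 and 0 to 0. In RFP cells, leaving out embryo wells gave 14 to 30 higher in spheroids and 9 to 22 in embryos, and limma-voom gave 9 in embryos. The length offset left 40 called differences between embryo and spheroid changes, where 217 of 8182 genes were called in that direction. Without the 50 highest other genes in the total, the family's share was 2.29% and 7.73% in embryo GFP and RFP wells and 8.37% and 8.20% in spheroid GFP and RFP wells. With single wells left out it was 1.88% to 2.01% in embryo GFP and 6.43% to 7.15% in embryo RFP wells. The cause of these shifts was not tested, apart from family scaling, which takes out a change shared by the family.

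Among the named members, 36 values that passed before or after the change of setting also changed sign. Family scaling shifts all genes of a comparison nearly alike, and members not named also changed sign under it. In the embryo under family scaling these were Rpl3 (-0.12), Rpl39 (-0.37), Rpl4 (-1.04), Rplp0 (-0.13), Rplp2 (-0.13), Rps14 (-0.024), Rps15a (-0.12), Rps27a (-0.11), Rps27l (-0.59) and Rps6 (-0.19), and under the length offset Rps27l (-0.14). In spheroids under the length offset they were Rpl10 (-0.27), Rpl3 (-0.13), Rpl39 (-0.22), Rpl41 (-0.027), Rplp1 (-0.26), Rplp2 (-0.32), Rps13 (-0.033), Rps15a (0.058), Rps2 (-0.15), Rps27a (-0.30) and Rps27l (-0.40). In GFP cells under family scaling they were Rpl11 (-0.41), Rpl3 (-0.18), Rpl30 (-1.41), Rpl38 (-0.46), Rpl4 (-0.58), Rpl5 (-0.40), Rpl7a (-0.87), Rplp0 (-0.11), Rplp2 (-0.16), Rps2 (-0.35), Rps27a (-0.061), Rps27l (-0.18), Rps4l (-0.36) and Rps6 (-0.25). Of the other values for named members, 83 lost their call and 35 gained one. The median change of all genes in the embryo was 0.09, and 0.77 without a filter and 1.29 with limma-voom.

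No paired analysis was possible because the groups compared share no well number. In spheroids, plate row as a covariate left 34 members higher in RFP and 25 in GFP wells. Summing the alike RFP wells of columns 3 and 4 also gave 34 and 25. The alternative without mitochondrial genes was not run, since the table holds 0 such symbols. Embryo groups of 5 and 4 wells and the low counts of Rpl34, Rpl30, Rpl39l and Rps27 limit what can be read from single members.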
